A study of Mus musculus with 22 samples.

Results

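The genes described here are Hmgcs1, Idi1, Fdft1, Sqle, Lss, Dhcr7 and Insig1, that is 6 enzymes of cholesterol synthesis and 1 protein that restrains the pathway when sterols are plentiful. They were chosen by symbol, and all 7 were found among the 55341 genes of the deposited count tables. They were followed in ribosome-bound mRNA of striatal neurons that express the dopamine receptor Drd1 (D1 neurons) and in the whole striatal lysate, in wild-type mice and in mice that model fragile X syndrome. The members are synthesis genes and a regulator, and no uptake receptor is among them.

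Cholesterol is built from acetyl-CoA in the cytosol and the endoplasmic reticulum, first as mevalonate, then as isoprenoid units, squalene and finally sterols. When membrane sterol falls, the escort protein SCAP carries the SREBP transcription factors out of the endoplasmic reticulum to be cut and to switch on the enzymes, and Insig1 holds SCAP back when sterol is sufficient. The brain makes nearly all of its cholesterol locally, because lipoproteins of the blood do not cross the blood-brain barrier, and oligodendrocytes and astrocytes are known for high synthesis, while neurons also make and import it.

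All mice expressed the ribosomal protein Rpl10a fused to EGFP in Drd1-expressing medium spiny neurons, so that translating ribosomes of these cells can be pulled down with antibodies against EGFP (translating ribosome affinity purification). The groups were 6 wild-type (WT) animals and 5 animals whose genotype is labelled FMRP mutant (KO), each with 1 pulldown library (IP) and 1 library of the cleared lysate (input, labelled Total), 22 libraries in all. FMRP, the product of Fmr1, is an RNA-binding protein that regulates translation and is lost in fragile X syndrome. The labels used here give no allele, age, sex, strain or litter, and the animals are named below by the numbers in the labels. Per the protocol, all pulldowns and sequencing were done as 1 batch, with cycloheximide in the lysis buffer and with nuclei and insoluble membranes spun out.

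The IP libraries held 9375611 to 82376192 counts and the input libraries 25164548 to 43276230 counts, of which the mitochondrial rRNA genes mt-Rnr1 and mt-Rnr2 took 0.42 to 0.904% in IP and 25.1 to 53.2% in input. Fmr1 itself was at 70.1 to 107.9 CPM in the 6 WT IP libraries and at 8.16 to 11.3 CPM in the 5 KO IP libraries, and at 59.7 to 72.5 against 11.1 to 15.0 CPM in input, so every library matched its labelled genotype. CPM is the count relative to the scaled size of the library. Drd1 was at 588.3 ± 74.5 CPM in WT IP and 228.1 ± 37.8 CPM in WT input (SD, n = 6), while Drd2, the receptor of the other projection neurons, was at 18 ± 2.96 and 226.6 ± 28.5 CPM. The libraries of animals 1 and 12 (WT) and 3 and 9 (KO) stood apart by markers of cortical excitatory neurons, whose summed level over 10 genes was 113.8 to 312.0 CPM in their IP libraries against 17.2 to 34.1 CPM in the other 7, and 177.7 to 706.4 against 96.5 to 139.9 CPM in input. All values include these 4 animals unless stated, and for part of the results values without them are also given.

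Of the 7 genes, 5 had a promoter in the RefSeq table of GRCm38.p6 used here, Sqle and Fdft1 not. The windows cover the 250 bases upstream of a transcription start. Those of Hmgcs1, Insig1 and Idi1 are shown, because Hmgcs1 and Insig1 are the members whose ribosome-bound level separated the 4 animals from the rest, and Insig1 and Idi1 were lower in IP than in input in both genotypes. Dhcr7 was lower in both as well, but has 3 annotated starts, and its windows are described without being printed. Capitals mark matches, on either strand, to TCACCCCAC (a form of the sterol regulatory element), to CCAAT (the box bound by NF-Y), to GGGCGG (the GC box bound by Sp1) and to CACGTG (an E-box).
Hmgcs1, chr13:119690101-119690350, plus strand: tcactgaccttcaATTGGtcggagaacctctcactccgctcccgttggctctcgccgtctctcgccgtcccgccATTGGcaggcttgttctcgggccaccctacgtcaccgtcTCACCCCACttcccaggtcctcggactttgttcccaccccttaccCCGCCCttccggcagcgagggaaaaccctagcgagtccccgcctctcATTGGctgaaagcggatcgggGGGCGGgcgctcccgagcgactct
Insig1, chr5:28071162-28071411, plus strand: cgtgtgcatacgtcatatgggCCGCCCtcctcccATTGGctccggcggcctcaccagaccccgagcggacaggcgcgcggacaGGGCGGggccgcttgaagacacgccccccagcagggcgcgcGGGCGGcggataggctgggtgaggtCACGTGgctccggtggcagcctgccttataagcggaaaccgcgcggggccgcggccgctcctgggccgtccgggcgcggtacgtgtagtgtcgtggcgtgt
Idi1, chr13:8885356-8885605, plus strand: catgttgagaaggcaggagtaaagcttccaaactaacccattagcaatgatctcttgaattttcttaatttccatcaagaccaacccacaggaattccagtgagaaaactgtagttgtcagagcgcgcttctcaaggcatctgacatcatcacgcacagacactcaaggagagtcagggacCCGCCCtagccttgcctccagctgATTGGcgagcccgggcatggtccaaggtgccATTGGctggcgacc
The Hmgcs1 window held 1 TCACCCCAC, from 137 to 129 bases upstream of the start, as did 0.496% of the 32851 RefSeq windows. It was the only one of the members' 7 windows (Dhcr7 has 3 starts) with that motif or with TCACNCCAC, a looser form that contains it and occurs in 1.05% of windows. CCAAT, found in 33.8% of all windows, occurred 3 times in Hmgcs1 (each as its reverse complement ATTGG), 2 times in Idi1, and 1 time each in Insig1 and Lss. The Dhcr7 window at chr7:143829964-143830213 held 2 CCAAT, and the other Dhcr7 windows none. GGGCGG, found in 32.7% of all windows, occurred 2 times in Hmgcs1 and Lss, 3 times in Insig1 and 1 time in Idi1, and 1, 0 and 3 times in the Dhcr7 windows that start at 143822917, 143823149 and 143829964. CACGTG, found in 6.02% of all windows, occurred in Insig1, from 101 to 96 bases upstream, and in 1 Dhcr7 window. A match describes the letters of the window and not a bound site.

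The entry enzyme Hmgcs1, which makes HMG-CoA and lies at chr13:119690379-119708260 (GRCm38/mm10), was the most abundant member in every group. Its level was 148.1 ± 28.9 CPM in WT IP (SD, n = 6), 143.5 ± 24.4 in KO IP (n = 5), 152.9 ± 23.9 in WT input (n = 6) and 145.4 ± 29.4 in KO input (n = 5). Fdft1 (chr14:63145150-63179578), squalene synthase, which commits the pathway to sterols, followed at 66.2 ± 13.8, 56.9 ± 7.01, 76.8 ± 13.3 and 65.3 ± 11.7 CPM in the same order of groups. Per kilobase of annotated exon, Hmgcs1 stood at 31.2 to 33.3 and Fdft1 at 13.5 to 18.2 CPM per kb over the 4 group means, and in each group the ranges of the animals did not overlap between Hmgcs1 and Fdft1, nor between Fdft1 and Insig1. These 2 enzymes were also the top ones in all 4 groups when the length of the transcript with the longest coding sequence was used, a measure chosen after the data were seen, which gave 42.8 and 17.9 CPM per kb in WT IP.

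Insig1 (chr5:28071363-28078662) came next per kb of exon, at 4.85 ± 2.28 CPM per kb in WT IP and 8.11 ± 2.03 in WT input. Below it, most neighbours in the order had overlapping ranges. In WT IP, Sqle (chr15:59315077-59331192), squalene epoxidase, a rate-limiting oxygenase, was at 2.31 ± 0.696 CPM per kb, Lss (chr10:76531588-76557138), lanosterol synthase, which closes the sterol rings, at 2.29 ± 0.458, and Idi1 (chr13:8885501-8892451), the isopentenyl diphosphate isomerase, at 1.33 ± 0.144. Dhcr7 (chr7:143823145-143848410), the reductase of a last step to cholesterol, was at 1.24 ± 0.509 CPM per kb there. The order of these 5 rested on the length used: by the transcript with the longest coding sequence, Lss rose to 5.3 and Dhcr7 to 4.38 CPM per kb in WT IP, and Idi1 was the lowest in all 4 groups, at 1.54 in WT IP. Some annotated exon bases overlap another gene (18.31% for Fdft1 with Ctsb, 12.12% for Hmgcs1 with Gm48342, 9.22% for Idi1 with Gm48574 and 3.53% for Lss with 4930483K19Rik), and since the libraries do not mark strand, reads there cannot be told apart.

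**Figure D1:**
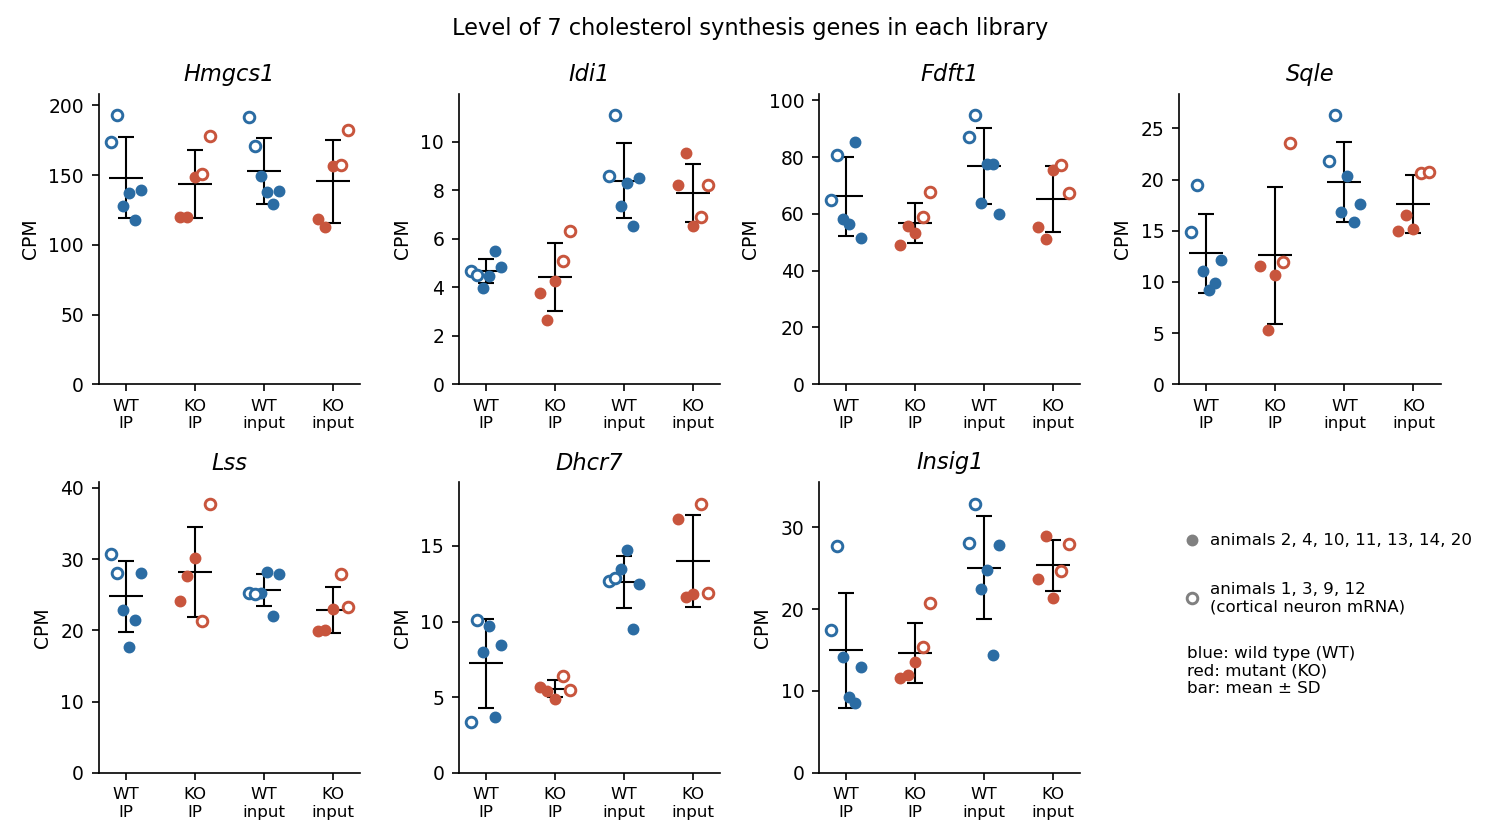
Level of each of the 7 genes in the 22 libraries, in CPM (y axis, from 0), by group (x axis: WT IP, KO IP, WT input, KO input); points are animals, bars the mean ± SD, and open points animals 1, 3, 9 and 12. In the Dhcr7 panel the 5 KO IP libraries lie at 4.87 to 6.42 CPM, below the 5 KO input libraries at 11.6 to 17.8 CPM.

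IP was compared with input to ask which of these mRNAs the D1 ribosomes held more or less of than the tissue. In wild type, 4 of the 7 members were lower in IP (Idi1, Dhcr7, Insig1 and Sqle), 0 were higher, and Hmgcs1, Fdft1 and Lss were not called. In the mutant, 3 were lower (Dhcr7, Idi1 and Insig1) and 0 higher. A gene was called where the adjusted p of edgeR's quasi-likelihood test, over all genes tested, was under 0.05, and all adjusted p-values below are of this kind unless another tool is named. The main fit did not pair IP with input of the same animal. Calls that changed with the animal as a block are named below. Such differences are common in these data: of 17311 genes tested, wild type had 49.6% called (27.8% lower, 21.8% higher) and the mutant 47.3% (26.4% lower, 20.9% higher). The members' median log2 fold change was -0.64 (wild type) and -0.475 (mutant), against -0.108 and -0.105 over all genes. The lower and upper quartiles over all genes were -0.971 and 0.325 in wild type and -1.042 and 0.338 in the mutant. All members lay between these quartiles in wild type, and all but Dhcr7 did in the mutant. The share of all genes with no overlap between IP and input, or with a ratio below 1 in every animal, was not counted. Where either is stated for a member below, it describes that gene only, and it may be common among all genes. In such bulk samples, fewer cells of a type and less RNA per cell cannot be told apart.

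Dhcr7 showed the largest decrease of the 7 in the mutant. Its IP level was 4.87, 6.42, 5.45, 5.69 and 5.42 CPM in KO animals 2, 3, 9, 10 and 11, and its input level 11.8, 17.8, 11.9, 16.8 and 11.6 CPM. The KO groups did not overlap, the log2 fold change was -1.33 ± 0.24 (SE) with an adjusted p of 5.1e-05, and IP stood at 0.399 of input. In the 6 WT animals the IP level ran from 3.37 over a median of 8.23 to 10.1 CPM and the input level from 9.53 over 12.8 to 14.7 CPM, so the groups overlapped slightly at their edges. Animals 1 and 20 were the low ones in WT IP, at 3.37 and 3.72 CPM, while the other 4 were at 7.98 CPM or more. The wild-type log2 fold change was -0.82 ± 0.22 (adjusted p = 0.00272), and the IP over input ratio was below 1 in 11 of 11 animals. Without animals 1, 3, 9 and 12 the log2 fold change was -0.746 in wild type (adjusted p = 0.017) and -1.326 in the mutant (adjusted p = 0.000917).

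Idi1 was called lower in both genotypes. It ran from 3.97 over a median of 4.58 to 5.51 CPM in WT IP and from 6.53 over 8.40 to 11.1 CPM in WT input, and it was 4.26, 5.10, 6.33, 3.78 and 2.65 CPM in IP and 6.51, 6.90, 8.20, 8.23 and 9.53 CPM in input of KO animals 2, 3, 9, 10 and 11. IP and input did not overlap in either genotype, though the nearest values in the mutant were 6.33 and 6.51 CPM. The ratio was below 1 in 11 of 11 animals. The log2 fold change was -0.85 ± 0.19 in wild type (adjusted p = 0.00044) and -0.83 ± 0.20 in the mutant (adjusted p = 0.00152), and without animals 1, 3, 9 and 12 it was -0.70 (adjusted p = 0.0145) and -1.17 (adjusted p = 0.00129). Idi1 rested on as few as 43 reads in an IP library, and its neighbour Idi2 on the same chromosome is a paralog, so reads of the pair may be split.

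Insig1, the only member that is no enzyme, was also lower in IP in both genotypes. Its level ran from 8.48 over a median of 13.5 to 27.7 CPM in WT IP and from 14.4 over 26.3 to 32.9 CPM in WT input, where the groups overlapped. In KO animals 2, 3, 9, 10 and 11 it was 13.5, 15.4, 20.7, 11.6 and 12 CPM in IP against 21.4, 24.7, 28.0, 23.7 and 28.9 CPM in input, with no overlap. The log2 fold change was -0.76 ± 0.23 in wild type (adjusted p = 0.00759) and -0.79 ± 0.25 in the mutant (adjusted p = 0.0109). The ratio was below 1 in 11 of 11 animals, and without animal 11 the mutant call was lost (adjusted p = 0.0618). Without animals 1, 3, 9 and 12 the log2 fold change was -0.998 in wild type (adjusted p = 0.000402) and -0.991 in the mutant (adjusted p = 0.00171).

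Sqle passed the test in wild type only, which is no evidence of a difference between genotypes. It ran from 9.24 over a median of 11.6 to 19.5 CPM in WT IP and from 15.9 over 18.9 to 26.3 CPM in WT input, with a log2 fold change of -0.64 ± 0.23 (adjusted p = 0.0259). In KO animals 2, 3, 9, 10 and 11 it was 10.7, 11.9, 23.6, 11.6 and 5.29 CPM in IP and 15.2, 20.6, 20.7, 15.0 and 16.5 CPM in input. Animal 9, where IP exceeded input, was the only one of the 11 with a ratio above 1, and the mutant log2 fold change was -0.475 ± 0.26 (adjusted p = 0.133). The wild-type call was lost without animal 13, 14 or 20 (adjusted p = 0.0533, 0.0903 and 0.055). Without animals 1, 3, 9 and 12 the wild-type call held, at -0.74 (adjusted p = 0.00436). In the mutant Sqle was called without animal 9 (-0.76, adjusted p = 0.0102), without animals 1, 3, 9 and 12 (-0.74, adjusted p = 0.0129), with limma-voom (-0.56, adjusted p = 0.0383) and with the animal as a block (-0.60, adjusted p = 0.0103).

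Hmgcs1, Fdft1 and Lss were not called in either genotype, and of these Hmgcs1 had the narrowest spread of ratios. For Hmgcs1 the IP over input ratio of single animals was 0.854 to 1.13 in wild type and 0.953 to 1.07 in the mutant, and the log2 fold change was -0.05 ± 0.14 (adjusted p = 0.801) and -0.02 ± 0.15 (adjusted p = 0.933). For Fdft1 it was -0.22 ± 0.13 in wild type (adjusted p = 0.178) and -0.20 ± 0.14 in the mutant (adjusted p = 0.27), with ratios of 0.705 to 1.1 over all animals. With the animal as a block, the wild-type difference of Fdft1 passed the test at -0.22 (adjusted p = 0.0376). Lss was the member with the most animals above 1 (7 of 11), and its log2 fold change was -0.05 ± 0.14 in wild type (adjusted p = 0.789) and 0.30 ± 0.15 in the mutant (adjusted p = 0.101), where it passed the test as higher only without animal 3 (0.47, adjusted p = 0.0174). With the animal as a block, 5 members were lower in wild type and 4 in the mutant, and without animals 1, 3, 9 and 12 the counts were 4 and 4.

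**Figure D2:**
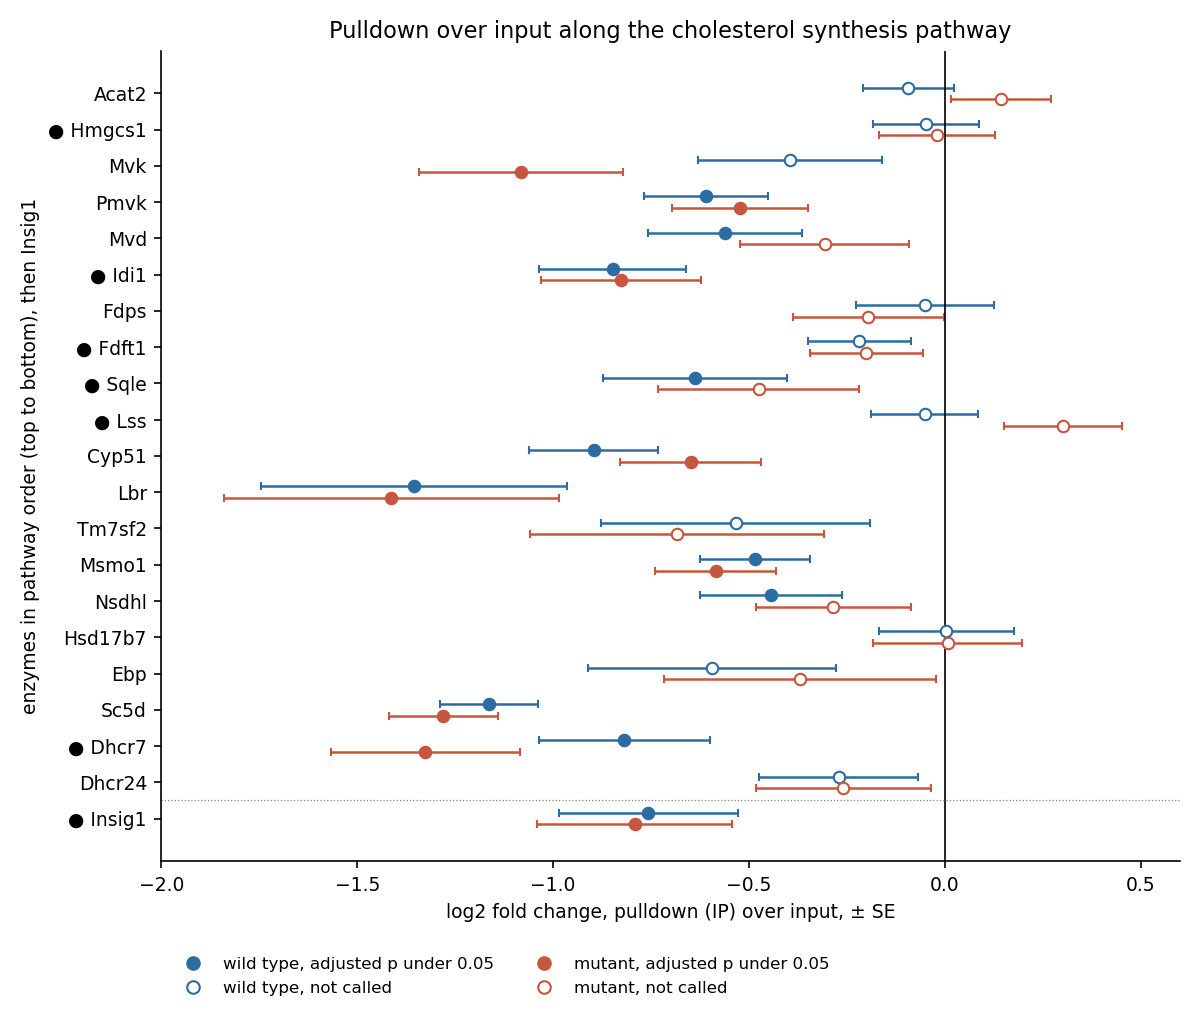
Log2 fold change of IP over input ± SE (x axis) for 20 enzymes from the start (top) to the end of cholesterol synthesis and for Insig1, in wild type (blue) and mutant (red); filled points have an adjusted p under 0.05, and black dots mark the 7 genes. Dhcr7 in the mutant lies at -1.33, while both Hmgcs1 points lie within 0.05 of 0 and Lss in the mutant at 0.30.

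Markers of astrocytes and oligodendrocytes were lower in IP by more than any member. All 10 astrocyte markers and all 10 oligodendrocyte markers were lower in IP in each genotype. Their median log2 fold changes were -3.84 and -5.09 in wild type, and in the mutant -3.63 and -4.81. The summed astrocyte level was 196.3 to 366.3 CPM in WT IP against 2549.9 to 3395.8 CPM in WT input, and the summed oligodendrocyte level 151.2 to 221.2 against 2657.8 to 3590.6 CPM, with no marker of either list at 0. All 10 D1 markers were higher in IP, with a median of 1.28 in wild type and 1.49 in the mutant, and all 6 measured D2 markers were lower. The 4 members called in wild type thus fell by 0.64 to 0.85 on the log2 scale where the astrocyte and oligodendrocyte markers fell by 3.26 or more. Other glial lists reached closer to the members. In wild type, the log2 fold change nearest 0 was -1.54 among oligodendrocyte precursor markers and -0.81 among microglia markers. The part of these cell types in the members' differences was not tested.

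**Figure D3:**
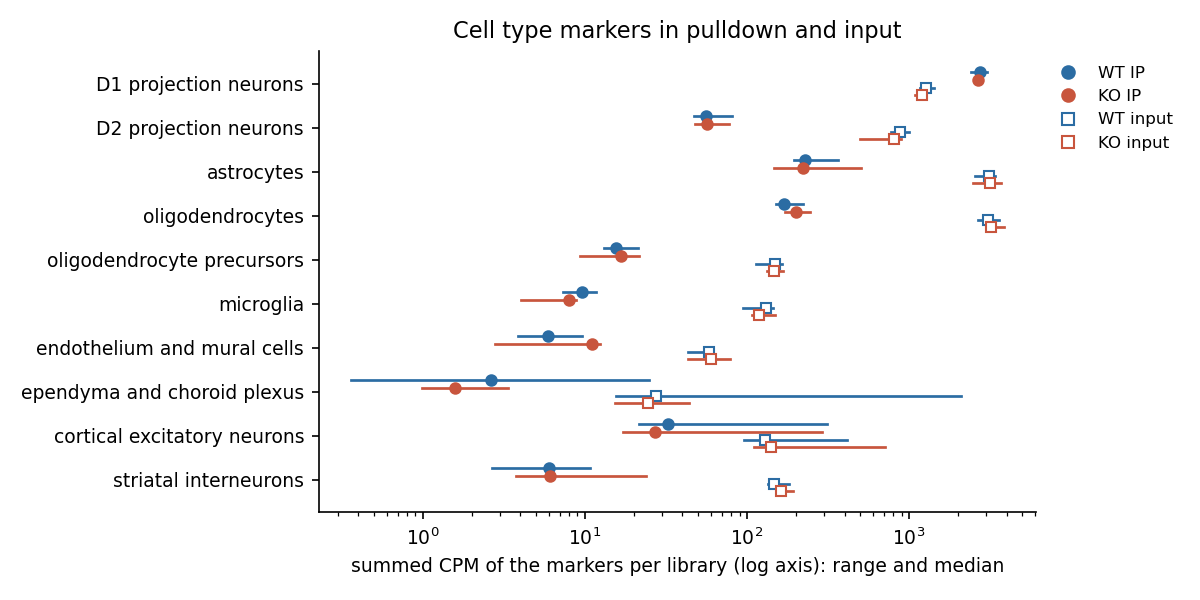
Summed CPM of the markers of 10 cell types (x axis, log scale) in WT and KO IP (filled circles) and input (open squares); symbols are medians over animals and lines run from the lowest to the highest library. Astrocyte markers lie at a median of 226.6 CPM in WT IP and 3124.0 CPM in WT input, and cortical markers spread from 17.2 to 312.0 CPM over the IP libraries.

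None of the other enzymes of the pathway was called higher in IP. Of 14 further synthesis enzymes, 7 were lower in wild type (median of the list -0.51) and 6 in the mutant (median -0.45). Over all genes tested, 27.8% were lower in wild type and 26.4% in the mutant. Sc5d, the desaturase whose product Dhcr7 reduces, fell by 1.16 ± 0.13 in wild type (adjusted p = 1.58e-08) and by 1.28 ± 0.14 in the mutant (adjusted p = 1.95e-08) on the log2 scale. Cyp51, the lanosterol demethylase that follows Lss, fell by 0.90 ± 0.16 (adjusted p = 5.38e-05) and 0.65 ± 0.18 (adjusted p = 0.00402). Lbr, a sterol reductase of the inner nuclear membrane, fell by 1.36 ± 0.39 in wild type (adjusted p = 0.00503) and 1.41 ± 0.43 in the mutant (adjusted p = 0.00788). Lbr was near the floor in IP, with as few as 19 reads in a WT library and 10 in a KO library. Pmvk, a kinase of the mevalonate steps, fell by 0.61 ± 0.16 (adjusted p = 0.00226) and 0.52 ± 0.17 (adjusted p = 0.0146), and Msmo1, a sterol methyl oxidase, by 0.48 ± 0.14 (adjusted p = 0.00553) and 0.58 ± 0.15 (adjusted p = 0.00268). Mvk, mevalonate kinase, fell by 1.08 ± 0.26 in the mutant (adjusted p = 0.00113) and was at -0.40 ± 0.23 in wild type (adjusted p = 0.17).

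Of 8 genes of sterol sensing and control, only Srebf1 was called, lower in both genotypes. Srebf1 encodes the SREBP form best known for fatty acid synthesis. It was at 1.75 ± 1.04 CPM in WT IP and 10.2 ± 1.6 in WT input (SD, n = 6), and at 1.58 ± 0.534 in KO IP and 11.6 ± 1.80 in KO input (n = 5). Its IP libraries held as few as 9 reads in WT and 22 in KO. The log2 fold change was -2.50 ± 0.33 (adjusted p = 3.73e-07) and -2.89 ± 0.37 (adjusted p = 2.58e-07), beyond the value of each of the 7 members.

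Among 9 genes of transport, storage and turnover, 3 were higher and 3 lower in IP in each genotype. Over all genes tested, 21.8% were higher and 27.8% lower in wild type, and 20.9% and 26.4% in the mutant. The neuronal cholesterol hydroxylase Cyp46a1, which turns cholesterol into a form that leaves the brain, was higher by 0.45 ± 0.10 in wild type (adjusted p = 0.00067) and 0.31 ± 0.11 in the mutant (adjusted p = 0.0263), as log2 fold changes. The lipoprotein receptor Vldlr was higher by 0.29 ± 0.10 (adjusted p = 0.0132) and 0.35 ± 0.10 (adjusted p = 0.00725), and the transporter Abcg1 by 0.32 ± 0.11 (adjusted p = 0.0141) and 0.31 ± 0.12 (adjusted p = 0.0308). The exporter Abca1 fell by 2.58 ± 0.26 (adjusted p = 3.84e-09) and 2.60 ± 0.28 (adjusted p = 2.01e-08), the lysosomal carrier Npc2 by 1.43 ± 0.16 (adjusted p = 4.13e-08) and 1.58 ± 0.18 (adjusted p = 4.37e-08), and the receptor Lrp8 by 1.28 ± 0.21 (adjusted p = 8.96e-06) and 1.39 ± 0.23 (adjusted p = 1.18e-05). The 3 higher calls did not all hold: in the mutant, Cyp46a1 and Abcg1 lost theirs with RLE scaling or DESeq2, and Vldlr and Abcg1 without animals 1, 3, 9 and 12 (adjusted p up to 0.104, 0.145 and 0.225 for Cyp46a1, Abcg1 and Vldlr over all alternatives). In wild type, Vldlr lost its call without animal 12 (adjusted p = 0.0721) and Abcg1 without animal 14 (adjusted p = 0.0841), and without the 4 animals the count of these 31 pathway genes that were called was 13 for wild type and 9 for the mutant, against 14 and 13 with them.

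The mutant was compared with wild type to ask whether loss of FMRP goes with other levels of these mRNAs on D1 ribosomes or in the tissue. None of the 7 was called in IP, where 0.0553% of 14456 genes were (8 genes, all lower), and 0 of 7 had an unadjusted p under 0.05 in edgeR (7.62% of all genes did). None was called in input either, where 0.0183% of 16429 genes were, and again 0 of 7 had an unadjusted p under 0.05 (6.84% of all genes did). At those shares, 0 of 7 is near the background. DESeq2 and limma-voom also called 0 of 7 in each assay, although DESeq2 gave no adjusted p for Idi1 and Dhcr7 in IP. The members' median log2 fold change was -0.04 in IP and -0.10 in input, against 0.00 over all genes in each.

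The intervals show which differences these numbers of animals allow. For Hmgcs1 in IP, WT animals 1, 4, 12, 13, 14 and 20 ran from 118.1 over a median of 138.1 to 193.0 CPM, and KO animals 2, 3, 9, 10 and 11 were at 148.9, 151.0, 177.8, 119.8 and 120.1 CPM, so the KO values lay within the WT range. The log2 fold change was -0.04 ± 0.13, with a 95% interval of -0.32 to 0.25 (adjusted p = 0.976). For Sqle the interval was wider, -0.64 to 0.63 around -0.01 ± 0.30 (adjusted p = 0.999), since its 11 IP libraries spanned 4.45-fold. For Insig1 the difference was -0.02 ± 0.27 (adjusted p = 0.994) and for Idi1 -0.07 ± 0.23 (adjusted p = 0.976). Without animals 1, 3, 9 and 12 it was 0.156 for Insig1 (adjusted p = 0.906) and -0.382 for Idi1 (adjusted p = 0.784).

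Dhcr7 had the largest difference in IP by edgeR, -0.36 ± 0.27, with a 95% interval of -0.94 to 0.21 (adjusted p = 0.832), but limma-voom gave -0.008 (adjusted p = 0.998). Without animals 1, 3, 9 and 12 edgeR gave -0.483 for Dhcr7 (adjusted p = 0.717). All 5 KO values, 4.87 to 6.42 CPM, fell between the 2 low and the 4 high WT animals. Fdft1 differed by -0.21 ± 0.13 in IP (95% interval -0.48 to 0.06, adjusted p = 0.768) and by -0.24 ± 0.13 in input (adjusted p = 0.779), and its group ranges overlapped in both assays. Lss differed by 0.20 ± 0.16 in IP (95% interval -0.14 to 0.53, adjusted p = 0.855) and by -0.17 ± 0.12 in input (adjusted p = 0.842). In input the others lay at -0.08 ± 0.13 for Hmgcs1, -0.17 ± 0.15 for Sqle, 0.01 ± 0.16 for Insig1, -0.10 ± 0.17 for Idi1 and 0.14 ± 0.16 for Dhcr7, with adjusted p from 0.888 to 0.994. In the authors' deposited table, which gives wild type over mutant from DESeq2, the column headed log2FoldChange ran from -0.134 to 0.168 for the 7 genes in IP and from -0.108 to 0.19 in input. The column headed lfcMLE in the authors' deposited table ran from -0.191 to 0.369 in IP and from -0.143 to 0.236 in input, and the adjusted p from 0.662 to 0.994 and from 0.743 to 0.992.

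**Figure D4:**
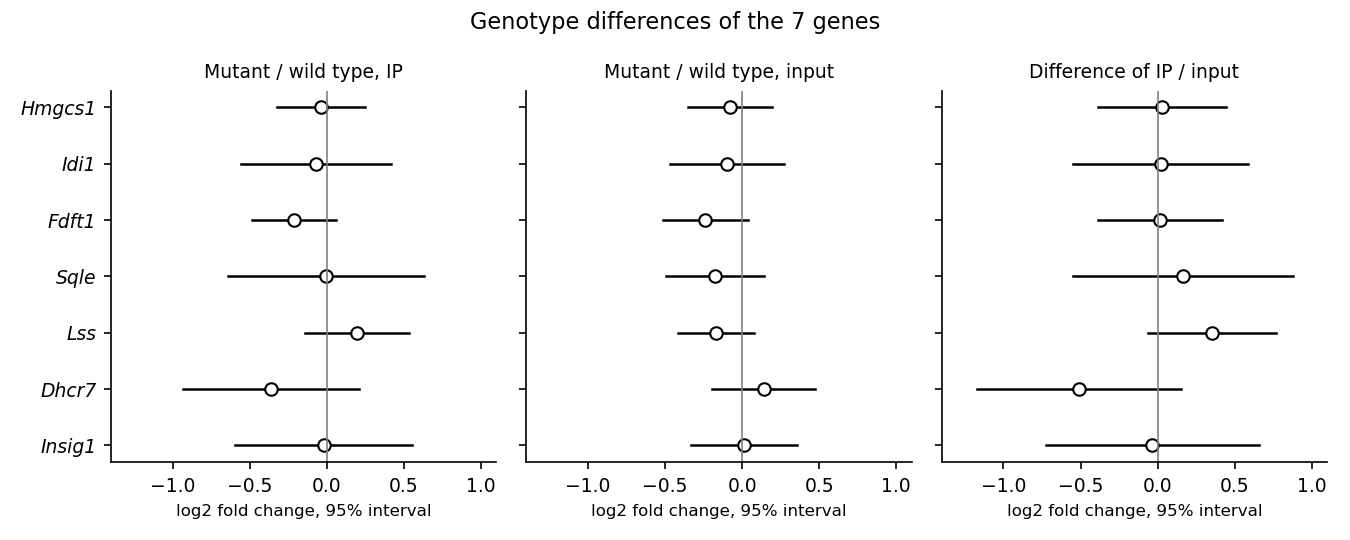
Log2 fold change of the 7 genes with its 95% interval (x axes) for mutant over wild type in IP (left), in input (middle) and for the difference between genotypes of IP over input (right). Every interval includes 0, the widest in IP being those of Sqle (-0.64 to 0.63), Dhcr7 and Insig1.

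Whether IP over input itself differed between genotypes was tested as an interaction over the 22 libraries. It was called for 0% of 17311 genes, so for 0 of the 7, and 0 of the 7 had an unadjusted p under 0.05 in edgeR. DESeq2 and limma-voom called 0 of the 7 as well. By edgeR the 2 members farthest from 0 were Dhcr7, whose ratio was lower in the mutant by 0.51 ± 0.32 on the log2 scale (-0.51, 95% interval -1.17 to 0.15, adjusted p = 1), and Lss, at 0.35 ± 0.20 (95% interval -0.06 to 0.77, adjusted p = 1). The Dhcr7 ratio of single animals was 0.266 to 0.785 in wild type and 0.34 to 0.468 in the mutant, so the KO values lay inside the WT range. The Lss ratio was 0.625 to 1.21 in wild type and 0.763 to 1.62 in the mutant, which overlapped. The other 5 lay between -0.03 (Insig1, SE 0.34) and 0.16 (Sqle, SE 0.35). The order depended on the setting: limma-voom gave -0.12 for Dhcr7, and without animals 1, 3, 9 and 12 Lss stood at 0.58, Dhcr7 at -0.58 and Idi1 at -0.46.

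None of the 31 other pathway genes was called between genotypes in IP (30 tested), in input or in the interaction, by edgeR, limma-voom or, where it gave an adjusted p, DESeq2. At an unadjusted p under 0.05 there were 4 in IP, 1 in input and 0 in the interaction, where 7.62%, 6.84% and 4.1% of all genes tested passed that limit. Cyp46a1 had the smallest p in IP: it ran from 41.4 over a median of 54.9 to 61.8 CPM in WT and from 36.7 to 45.4 CPM in KO, with a log2 fold change of -0.36 ± 0.11 (edgeR unadjusted p = 0.00407, adjusted p = 0.404). The WT and KO ranges of Cyp46a1 overlapped. The endocytic receptor Lrp1 was at -0.40 ± 0.14 (adjusted p = 0.517), Scap at -0.33 ± 0.16 (adjusted p = 0.653), Mylip, a ligase that marks lipoprotein receptors for degradation, at 0.16 ± 0.25 (adjusted p = 0.935), Sc5d at -0.33 ± 0.17 (adjusted p = 0.686) and Mvk at -0.42 ± 0.27 (adjusted p = 0.79). In input, Sc5d was at -0.22 ± 0.10 (adjusted p = 0.712), Acat2, the thiolase of the opening step, at -0.19 ± 0.10 (adjusted p = 0.772) and Cyp46a1 at -0.23 ± 0.11 (adjusted p = 0.744). The remaining named values there were Vldlr at -0.20 ± 0.10 (adjusted p = 0.763), Scap at -0.22 ± 0.14 (adjusted p = 0.81) and Srebf1 at 0.19 ± 0.16 (adjusted p = 0.884). In the interaction, Mvk was at -0.69 ± 0.35, Lrp1 at -0.36 ± 0.20, Acat2 at 0.24 ± 0.17, Cyp46a1 at -0.14 ± 0.15, Mbtps1, a protease that cuts the SREBPs, at 0.12 ± 0.14 and Nr1h3, a sterol-sensing nuclear receptor, at 0.94 ± 1.10, each with an adjusted p of 1.

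The span between animals is given over all libraries of an assay, both genotypes together. It holds both genotype means by construction, so it is a description and no test of genotype. In IP, the highest library exceeded the lowest 4.45-fold for Sqle, 3.27-fold for Insig1, 3-fold for Dhcr7, 2.39-fold for Idi1, 2.15-fold for Lss, 1.75-fold for Fdft1 and 1.63-fold for Hmgcs1. In input the same span was smaller for Sqle (1.75-fold), Insig1 (2.28-fold), Dhcr7 (1.87-fold), Idi1 (1.71-fold) and Lss (1.41-fold), and close to that in IP for Fdft1 (1.85-fold) and Hmgcs1 (1.7-fold). The least covered libraries had 86 reads for Sqle, 88 for Dhcr7 and 43 for Idi1 in IP, against 1951 for Hmgcs1.

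The animals with more cortical marker mRNA were the high ones for some members. In IP, Hmgcs1 was at 173.6, 151.0, 177.8 and 193.0 CPM in animals 1, 3, 9 and 12 and at 118.1 to 148.9 CPM in the other 7, and Insig1 at 17.4, 15.4, 20.7 and 27.7 CPM against 8.48 to 14.1 CPM. These 2 members, both higher, were the ones whose ranges did not overlap in IP, where 1.9% of 14456 genes were higher and 0.422% lower without overlap. In input, Hmgcs1 (157.2 to 191.8 against 112.5 to 156.2 CPM) and Sqle (20.6 to 26.3 against 15.0 to 20.3 CPM) were higher without overlap, as were 1.81% of 16429 genes (0.444% were lower without overlap), while Insig1 overlapped (24.7 to 32.9 against 14.4 to 28.9 CPM). Sqle in IP came near to separating, at 11.9 to 23.6 against 5.29 to 12.1 CPM. Idi1, Fdft1, Lss and Dhcr7 overlapped in both assays, and for Dhcr7 animal 1 was the lowest IP library of all at 3.37 CPM. The 4 animals comprise 2 of each genotype and were set apart by their cortical markers, which were also higher there. The part of that mRNA in the members' levels was not tested.

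**Figure D5:**
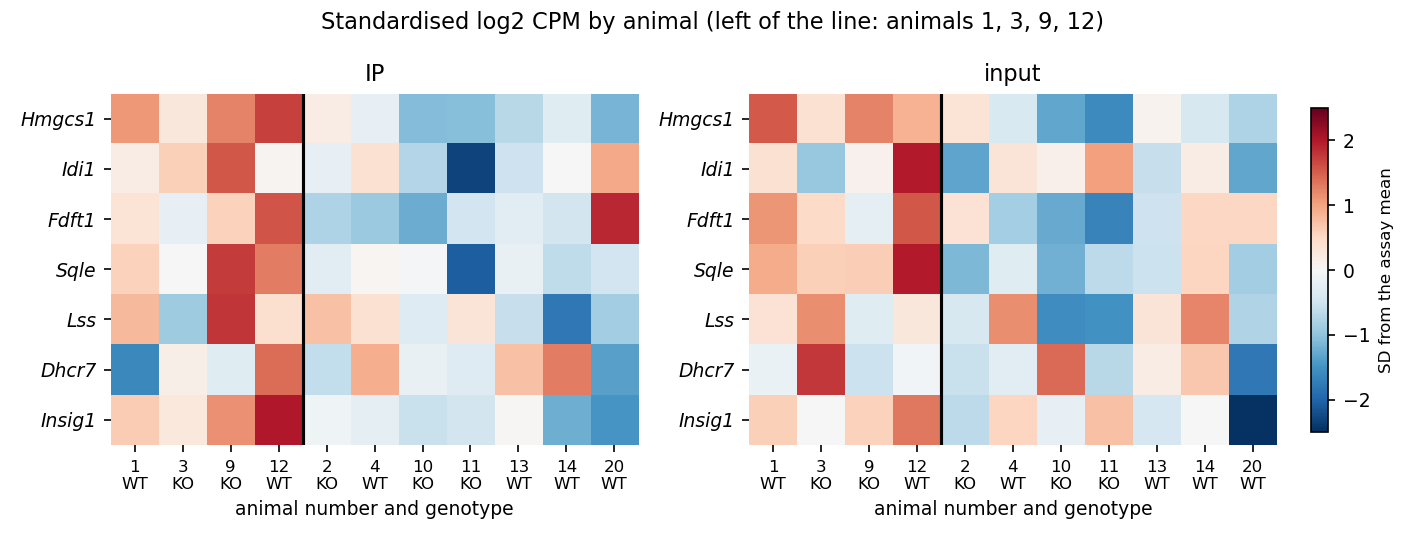
Log2 CPM of the 7 genes in each animal (x axis: animal number and genotype), as SD from the mean of the 11 libraries of an assay (colour), in IP (left) and input (right); animals 1, 3, 9 and 12 stand left of the black line. Hmgcs1 is above the mean in all 4 of them in both panels, while Dhcr7 in IP lies below it in animal 1 and above it in animal 12.

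The genes whose level followed the members most closely over the 11 IP libraries were Napb, Adcy1, B3gat1, Cmpk2 and Camk2g. They were ranked among 7672 genes by Pearson's r of log2 CPM with the mean standardised log2 CPM of the 7 members, which was 0.944, 0.931, 0.929, 0.919 and 0.918. Over the 7 animals without raised cortical markers r was 0.752, 0.379, 0.762, 0.772 and 0.587, the lowest being that of Adcy1. The genes were picked for the highest r over all 11 libraries. A lower r over 7 of them therefore does not show which animals the likeness rested on. In the 11 input libraries the top genes of 8244 were Rgs19, Hid1, Usp20, Entpd7 and Arhgef25, with r of 0.876, 0.865, 0.86, 0.859 and 0.856, and of 0.802, 0.634, 0.708, 0.832 and 0.671 over the 7 animals. The lists share no gene, IP and input come from the same animals, and depth differs between libraries, so these are descriptions of the 11 libraries and carry no p.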

How the data were processed

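RNA was sequenced from IP and input of 6 wild-type and 5 mutant mice (22 libraries). Per the submitters' processing notes the authors used STAR, featureCounts and mm10, with versions not given in the sources used here, and they deposited raw counts per gene symbol. Libraries are not strand-specific per the labels' protocols. The authors' deposited tables of wild type over mutant, made with DESeq2 per the submitters' processing notes, hold per the file headers log2 differences, raw and adjusted p-values, a mean signal and a test score; the deposited signal and score were not used. All other values were computed from the counts.

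Levels are CPM on 1 TMM scale over 22 libraries. log2 CPM used a prior count of 2. Genotype was fitted within the 11 libraries of an assay, and IP against input and the interaction over all 22 with 4 groups. The main fits over 22 libraries did not pair IP with input of the same animal, so their SE and adjusted p ignore that pairing. The fits used edgeR 4.0.16 in R 4.3.3 (filterByExpr, TMM, robust quasi-likelihood, Benjamini-Hochberg at 0.05 over all genes tested). Intervals are 95% intervals of the fitted log2 difference, taken from its SE, and are not the range of single animals. IP and input of an animal come from 1 lysate: their deviations from the group means correlated at 0.115 to 0.243 over 17311 genes, and each of 11 animals matched its own number best. Alternatives were RLE scaling, other filters, DESeq2 1.42.0, limma-voom 3.58.1, the animal as a block, leaving out animals 1, 3, 9 and 12, mt-Rnr1 and mt-Rnr2, or each animal.

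The code was tested on simulated counts, in which all genes had the same spread beyond counting noise and IP and input of an animal were unrelated. The members differ in spread: in KO IP the SD was 52.9% of the mean for Sqle and 10.1% for Dhcr7. The shares recovered therefore need not hold for single members. For IP against input in wild type (16651 genes), 28% of genes raised 1.5-fold, 86% of those raised 2-fold and 100% of those raised 4-fold were recovered. Of genes lowered to 0.25 of their level, 96% were recovered. For genotype in IP (15944 genes) the shares were 36%, 76% and 100% for raised genes and 92% for lowered genes. Calls among unchanged genes numbered 10 for IP against input and 7 for genotype. Positions, exon lengths and overlaps came from GENCODE vM21 (GRCm38/mm10), and promoters from RefSeq (GRCm38.p6).

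Members and lists were chosen with earlier results of these data known, and so were the 4 animals. The text names all members; of each other list, up to 4 called genes per direction with the smallest p for IP against input, and otherwise the 2 with the smallest p; and the 5 genes most like the members per assay. Some genes of the pathway are not reported here, and protein sequences were not analysed here. Marker lists also covered oligodendrocyte precursors (6 of 6 lower in IP in each genotype), microglia (8 of 8), endothelium and mural cells (6 and 5 of 8), ependyma and choroid plexus (4 and 3 of 4 tested), interneurons (7 of 8) and cortical neurons (1 of 10).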

Additional observations from a re-analysis of the deposited data

Results flagged for a closer look

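The log2 ratio of IP over input for Sqle in wild-type animal 14 was -1.14, while the other 5 wild-type animals lay between -0.69 and -0.43. The gap to the nearest animal was 0.633 of the whole range of the 6, above the Dixon limit for that number of animals. Sqle was at 9.24 CPM in IP and 20.3 CPM in input of animal 14, the lowest WT IP value beside an input value within the WT range. Animal 14 also had the lowest wild-type ratio for Insig1 (0.374), Fdft1 (0.724) and Lss (0.625). It was the only value set apart in 42 such tests, and chance alone sets apart about 1 in 20 groups.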

How the results depend on the processing

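No count of called members or other pathway genes moved by more than 1.5 times under any of the 19 alternatives run. Leaving out each animal gave 3 to 4 called members in wild type, 2 to 4 in the mutant, and 0 in the genotype comparisons and the interaction. The replicate block gave 5 and 4 called members (4 and 3 without it) and 16 and 15 other pathway genes (14 and 13 without it). Over all genes the block gave 9319 and 8906 calls (8585 and 8188 without it). Beyond Fdft1 in wild type and Sqle in the mutant, both named in the report, it changed no call of a member. No paired analysis was possible because no animal is in both genotypes, for mutant against wild type. Over all genes, mutant against wild type gave 8 calls in IP and 3 in input, but 75 and 28 with DESeq2 (5 for the interaction, against 0), 5 in IP with limma-voom, 5 in input with no filter and 7 without animals 1, 3, 9 and 12; leaving out each animal gave 4 to 8, 2 to 7 and, for the interaction, 0 to 2.

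Directions turned only for differences near 0 that no setting called. Mutant over wild type in IP: leaving out each animal, Hmgcs1 ran from -0.126 to 0.059, Sqle from -0.35 to 0.18, Insig1 from -0.17 to 0.25, Idi1 from -0.229 to 0.061 and Mylip from -0.10 to 0.32; Insig1 was 0.091 and Mylip -0.05 with limma-voom, and Insig1 0.16 without animals 1, 3, 9 and 12. In input: Hmgcs1 -0.162 to 0.007, Insig1 -0.11 to 0.11, Idi1 -0.17 to 0.001, and Idi1 0.078 without the 4 animals. IP over input: Lss in wild type -0.128 to 0.059; Hmgcs1 in the mutant 0.002 with no filter and 0.008 without the 4 animals. Interaction: Hmgcs1 -0.004 to 0.083, Sqle -0.12 to 0.33, Insig1 -0.15 to 0.12, Idi1 -0.13 to 0.23, Fdft1 -0.054 to 0.102; Insig1 0.03 with limma-voom, Insig1 0.004 and Idi1 -0.026 with the block; without the 4 animals Insig1 0.007, Idi1 -0.46, Fdft1 -0.054 and Mbtps1 -0.018. The cause was not tested. With 5 and 6 animals, increases of 1.5-fold were mostly missed in the simulated counts, which gave all genes the same spread. Idi1, Sqle and Dhcr7 rest on the fewest reads.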
